A study of Mus musculus with 12 samples.

Results

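The 51 genes described here encode the secreted and membrane-bound enzymes that cut extracellular matrix, their relatives and their inhibitors. They are every gene of the deposited table whose symbol names a matrix metalloproteinase (Mmp, 23 genes), an ADAMTS protease (Adamts, 19), an ADAMTS-like protein (Adamtsl, 5) or a tissue inhibitor of metalloproteinases (Timp, 4), out of 23423 genes in all. Membership was set by symbol and not by a measured value. Polyadenylated RNA was sequenced from 12 libraries of CD1 mouse heart cells in 6 groups of 2, all from hearts at postnatal day 1.5. The group called fibroblasts was freshly isolated, with cells bearing Thy1 at their surface kept on magnetic columns. The group called cardiomyocytes was freshly isolated with a commercial neonatal kit, for which the labels name no sorting step. In the other 4 groups, fibroblasts of the same kind were plated on gelatin in medium with serum and collected 3 days after virus was added. The control group received the retroviral vector pMXs-puro without the factors (its titles say lacZ, its other labels an empty vector), and the MGT group received the same vector with Mef2c, Gata4 and Tbx5, transcription factors of the developing heart. The shNT group received MGT with a lentivirus for a non-targeting hairpin, and the shPtbp1 group MGT with a lentivirus for a hairpin against Ptbp1, a regulator of splicing. The shNT and shPtbp1 groups thus share the MGT retrovirus and differ from the MGT group by a lentivirus. The labels name no selection of infected cells, and nothing in the labels says whether replicates are separate animals or cultures.

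Matrix metalloproteinases are zinc enzymes made as inactive precursors. They are grouped by what they cut or where they sit: collagenases open fibrillar collagen, gelatinases cut denatured and basement membrane collagen, stromelysins cut many matrix proteins, and membrane-type enzymes act at the cell surface and activate others. ADAMTS enzymes carry thrombospondin repeats that bind them to matrix, and they trim procollagens, cut the large proteoglycans versican and aggrecan, or act on fibrillin microfibrils. ADAMTS-like proteins share the repeats but lack the protease domain. TIMPs bind the active site of the enzymes, and in the heart the balance between these families bears on how matrix is turned over during growth and after injury.

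Values are scaled CPM, that is, each gene's share of the reads assigned to genes in a library (counts scaled to an equal total), divided by a library scaling factor, and 2 values in a row are replicates 1 and 2. Of the 51 genes, 42 reached 1 CPM in at least 2 libraries and were tested with limma across 13977 genes. A gene is said to be called, or to have risen or fallen, where the Benjamini-Hochberg adjusted p over all those genes was under 0.05. Changes are log2 fold changes ± standard error on the log2(scaled CPM + 0.5) scale, which understates changes of low genes. A gene that passed the filter only through a group where it was high had to differ, so counts over the 42 are read beside the share of all genes called. The libraries held 49320858 to 94005212 assigned reads. Ptbp1 stood at 81.1 and 78.5 in shPtbp1 and 359.8 and 365 in shNT; replicate 2 of shPtbp1, which one label calls a Ptbp2 hairpin, was as low as replicate 1. The fresh preparations were enriched, not pure. The cardiac myosin Myh6 was 5781 and 5466 in cardiomyocytes and 674 and 679.7 in fibroblasts, and the collagen gene Col1a1 was 7632 and 7248 in fibroblasts and 3511 and 3559 in cardiomyocytes. In bulk RNA, fewer cells of a type and less RNA per cell cannot be told apart.

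**Figure D1:**
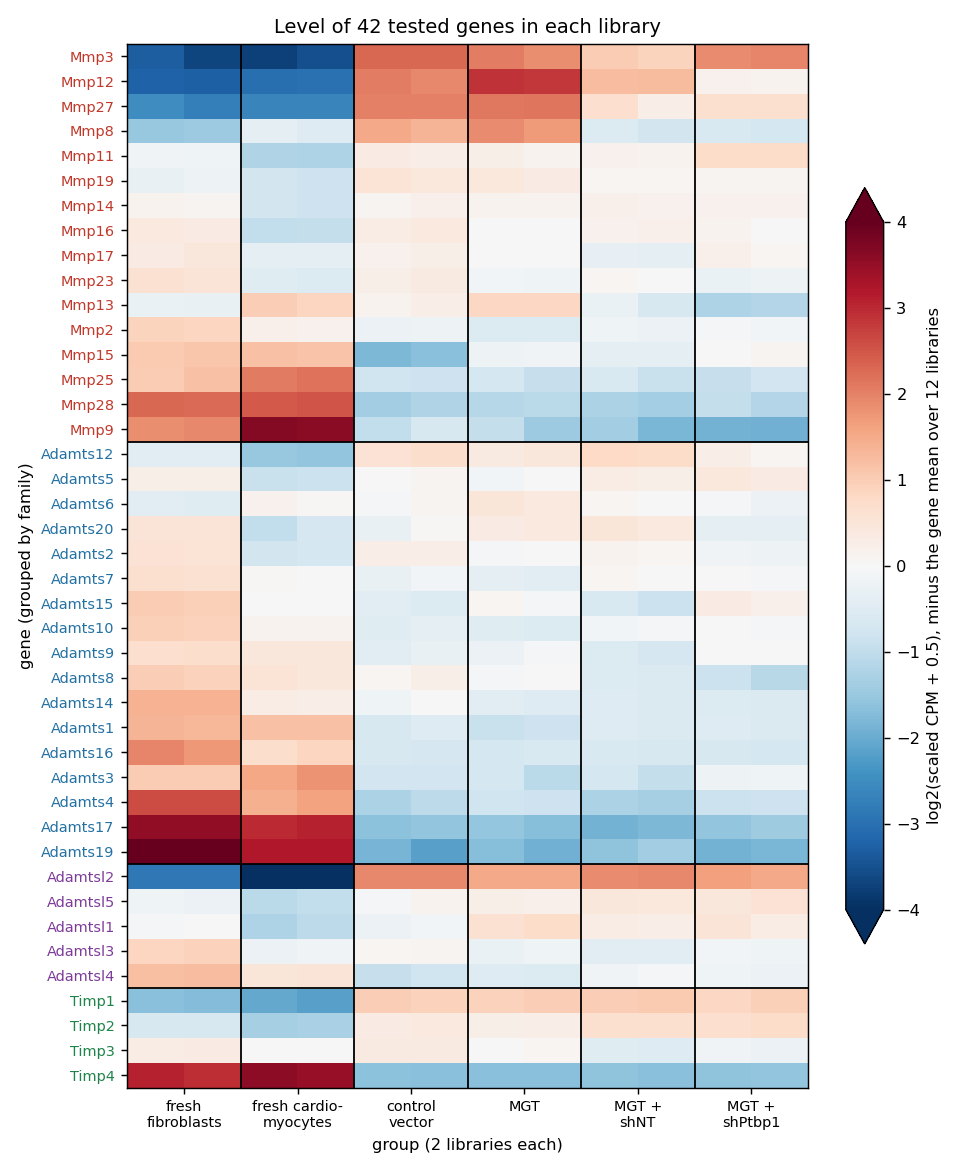
Heat map of the 42 tested genes (rows, by family) in the 12 libraries (columns, 2 for each group); colour is log2(scaled CPM + 0.5) minus the gene's mean over all libraries, clipped at 4 either way. Mmp3, Mmp12, Mmp27, Adamtsl2 and Timp1 are high in cultured and low in fresh cells, and Adamts19, Adamts17, Mmp28 and Timp4 show the reverse.

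A run of 10 Mmp genes lies side by side on chromosome 9, from Mmp13 at 7272514 to the end of Mmp7 at 7699585 (GRCm38, the mm10 build). RefSeq promoters (GRCm38.p6) were found for 36 of the 51 genes and searched over the 250 bases before each start for TGANTCA, the palindromic core that AP-1 factors of the Fos and Jun families bind. The core was present in 8 of 18 Mmp genes with a sequence and in none of the 10 Adamts, 4 Adamtsl and 4 Timp genes. All 8 genes with it belong to the chromosome 9 run, where it was found in 8 of 10 genes (80%), against 7.82% of all 27025 genes with a sequence. Among the tested genes of all 4 families with a sequence, only Mmp3, Mmp12 and Mmp13 held it, 3 of 27 (11.1%). On either strand TATAAA was found in 7 of the 10 genes of the run and in 14.3% of all genes. A match is a description of the letters and not a bound site. The 100 bases before the start of the 5 tested genes of the run, and of Mmp10, are shown because those 5 are the genes that fell by at least 2-fold when a lentivirus was added, and Mmp10 is the close relative of Mmp3; capitals mark TGANTCA, and Mmp8 and Mmp27 hold no match in the 250 bases. Mmp12 counts as holding the core through the start shown, and none was found before its other RefSeq start.
Mmp13, chr9:7272414-7272513, plus strand: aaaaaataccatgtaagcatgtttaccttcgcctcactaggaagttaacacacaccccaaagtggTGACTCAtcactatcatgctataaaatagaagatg
Mmp12, chr9:7347274-7347373, plus strand, the second of 2 RefSeq starts: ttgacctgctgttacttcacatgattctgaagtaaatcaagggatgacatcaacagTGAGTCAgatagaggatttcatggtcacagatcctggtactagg
Mmp3, chr9:7445722-7445821, plus strand: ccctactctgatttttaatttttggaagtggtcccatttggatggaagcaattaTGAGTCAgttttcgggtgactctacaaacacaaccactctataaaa
Mmp10, chr9:7502242-7502341, plus strand: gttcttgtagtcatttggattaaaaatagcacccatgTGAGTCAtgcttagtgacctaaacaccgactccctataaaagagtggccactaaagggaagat
Mmp8, chr9:7558329-7558428, plus strand: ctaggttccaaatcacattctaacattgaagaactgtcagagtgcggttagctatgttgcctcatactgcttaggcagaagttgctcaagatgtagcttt
Mmp27, chr9:7571296-7571395, plus strand: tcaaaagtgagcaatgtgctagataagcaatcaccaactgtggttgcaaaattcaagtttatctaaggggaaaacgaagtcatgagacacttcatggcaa

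All 5 tested chromosome 9 genes rose in control cultures against fresh fibroblasts, where 43.5% of all genes rose, and Mmp3, Mmp12 and Mmp27 had the 3 largest rises among the Mmp genes. Mmp3 and Mmp27 passed the filter only through the cultures, which fixed their direction. Stromelysin 1, Mmp3, cuts proteoglycans, laminin and fibronectin and activates other precursors. Its level was 0.313 and 0.117 in fibroblasts, 0.0971 and 0.197 in cardiomyocytes, 38.4 and 38.6 in control, 32.2 and 28.5 in MGT, 15.6 and 14.1 in shNT, and 28.7 and 30.1 in shPtbp1. Every cultured library lay above every fresh one, and within the cultures shNT was lowest. Mmp3 rose in control cultures against fresh fibroblasts by 5.78 ± 0.11 (adjusted p = 2.02e-19), fell in shNT against MGT (-1.01 ± 0.11) and rose in shPtbp1 against shNT (0.96 ± 0.11). Set against MGT alone, shPtbp1 differed by -0.042 ± 0.11 (adjusted p = 0.803), with both shPtbp1 libraries between the MGT libraries. Macrophage elastase, Mmp12, which cuts elastin, was at 7.31 and 7.03 in fibroblasts, 8.45 and 8.81 in cardiomyocytes, 299 and 278 in control, 537 and 521 in MGT, 172 and 173 in shNT, and 81.5 and 80.1 in shPtbp1. Within the cultures it was highest in MGT, followed by control, shNT and shPtbp1, with no overlap between neighbours. The change was 5.24 ± 0.042 in control against fresh fibroblasts, 0.87 ± 0.042 in MGT against control, -1.61 ± 0.042 in shNT against MGT and -1.09 ± 0.042 in shPtbp1 against shNT (adjusted p = 1.18e-12). Mmp27, a little-studied relative of the stromelysins, was 0.146 and 0.0522 in fibroblasts, 0.0777 and 0.0790 in cardiomyocytes, 14.3 and 14.2 in control, 15.2 and 15.5 in MGT, 5.36 and 3.90 in shNT, and 5.16 and 5.16 in shPtbp1. It rose in culture by 4.63 ± 0.12 (14 and 4 reads in the fresh fibroblast libraries), and fell in shNT against MGT (-1.64 ± 0.12) and in shPtbp1 against MGT (-1.49 ± 0.12). Because fresh libraries held few reads, its culture value depends on the pseudocount and was 7.11 with edgeR's quasi-likelihood test on reads and 2.95 at a pseudocount of 2.

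Of the tested collagenases, Mmp8 and Mmp13 lie in the same run. Neutrophil collagenase, Mmp8, was 4.44 and 4.64 in fibroblasts, 10.2 and 9.35 in cardiomyocytes, 39.6 and 35.7 in control, 51.8 and 45.1 in MGT, 9.05 and 7.94 in shNT, and 8.67 and 8.11 in shPtbp1. Control and MGT libraries were highest, and both lentivirus groups lay just under the fresh cardiomyocytes, with 2.92 ± 0.085 in control against fibroblasts and -2.44 ± 0.085 in shNT against MGT (adjusted p = 2.02e-14). Collagenase 3, Mmp13, the main fibrillar collagenase of rodents, was 3.52 and 3.40 in fibroblasts, 9.01 and 8.23 in cardiomyocytes, 4.82 and 5.28 in control, 8.16 and 8.12 in MGT, 3.48 and 2.57 in shNT, and 1.56 and 1.64 in shPtbp1. It was high in cardiomyocytes (1.20 ± 0.11) and MGT (0.64 ± 0.11 against control), and lower with each hairpin: -1.31 ± 0.11 for shNT against MGT and -0.73 ± 0.11 for shPtbp1 against shNT (-0.47 at a pseudocount of 2). The rodent collagenases Mmp1a and Mmp1b stayed under the filter. Mmp1b had 0 reads in each of the 4 fresh libraries, which allows up to 3 reads in each, and 15 to 34 reads in every cultured library; reads of these close copies may be shared or lost, and 10.8% of the exon bases of Mmp1b are shared with Mmp12 on the opposite strand. Mmp10, stromelysin 2, also untested and close in sequence to Mmp3, had 4 and 0 reads in fibroblasts and 71 and 71 in control, then 33 and 26 in MGT, 30 and 16 in shNT and 8 and 6 in shPtbp1. Mmp7 and Mmp20, the matrilysin and the tooth enamel enzyme at the far end of the run, had 0 reads in all 12 libraries.

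Macrophages and neutrophils are known to make Mmp8, Mmp9 and Mmp12, so markers of both were read in the same libraries. The 13 macrophage markers in the table summed to 1304 and 1298 in fibroblasts, 877 and 859 in cardiomyocytes, 4171 and 3947 in control, 4174 and 4056 in MGT, 1401 and 1451 in shNT and 1555 and 1602 in shPtbp1. All 13 fell in shNT against MGT, with a median of -1.89, and 9 rose and 3 fell in control against fresh fibroblasts. The complement gene C1qa was 283 in MGT and 60.5 in shNT, and the lysozyme gene Lyz2 2222 and 867. In MGT against control, where Mmp12 rose, 1 macrophage marker rose and 7 fell. In shPtbp1 against shNT, where Mmp12 fell, 9 of the 13 fell and 1 rose, with a median of -0.35 against -1.09 for Mmp12, while the gene that rose was Lyz2, at 1116 in shPtbp1, and the sum was higher. The 9 neutrophil markers summed to 8.90 and 8.86 in control, 10.5 and 10.6 in MGT, 1.79 and 2.03 in shNT and 2.66 and 2.83 in shPtbp1. Of the 8 tested, 6 fell in shNT against MGT, where Mmp8 fell, with a median of -1.23. In control against fresh fibroblasts, where Mmp8 rose, 7 of the 8 fell and 1 was not called, with a median of -3.88. In MGT the receptor gene Csf3r was the highest of the 9 at 5.16 (1.43 in shNT), followed by Mpo at 1.58 (0.109 in shNT) and S100a8 at 1.27 (0.251 in shNT), while Retnlg was at 0 in control and MGT. The part of these cells in the Mmp values was not tested.

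**Figure D2:**
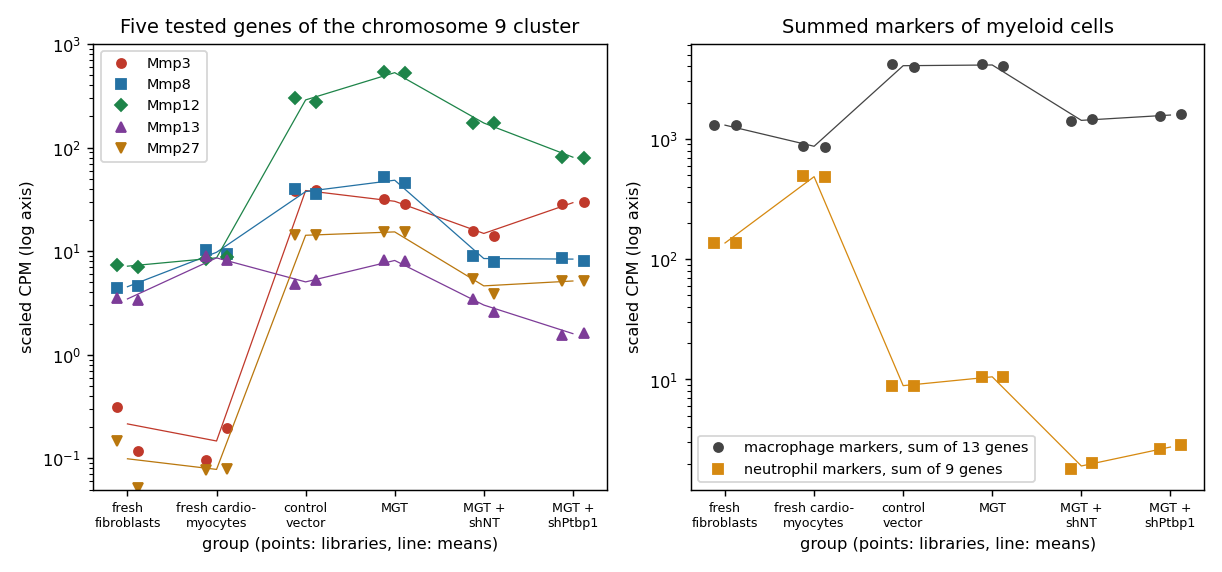
Left, scaled CPM of the 5 tested chromosome 9 genes in each library (points) with group means joined by lines; right, summed scaled CPM of 13 macrophage and 9 neutrophil markers; both vertical axes are logarithmic. In the left panel Mmp3, Mmp12 and Mmp27 are far lower in fresh than in cultured libraries; in the right panel the macrophage sum is 4059 in control and 4115 in MGT on average, and 1426 in shNT and 1579 in shPtbp1.

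Per kb of exon, Mmp2 was the most abundant protease of the set in every group but MGT, where Mmp14 was above it. Mmp2, gelatinase A, stood at 1072 and 1059.9 in fibroblasts, 664 and 653 in cardiomyocytes, 495 and 502 in control, 397 and 397 in MGT, 514 and 492 in shNT, and 561 and 542 in shPtbp1. Fresh libraries all lay above cultured ones, with -0.70 ± 0.035 in cardiomyocytes against fibroblasts and -1.10 ± 0.035 in control cultures. MGT was the lowest group (-0.33 ± 0.035 against control), and shNT lay above MGT (0.34 ± 0.035). Gelatinase B, Mmp9, a product mainly of neutrophils and macrophages, was 7.71 and 8.07 in fibroblasts, 28.1 and 26.8 in cardiomyocytes, 0.635 and 0.960 in control, 0.660 and 0.323 in MGT, 0.353 and 0.138 in shNT, and 0.114 and 0.0981 in shPtbp1. It was higher in cardiomyocytes (1.74 ± 0.16) and lower in cultures (-2.70 ± 0.16), where all libraries were under 1. Neutrophil markers followed the same order, with sums of 490.0 and 480.1 in cardiomyocytes, 136 and 136 in fibroblasts and 8.90 and 8.86 in control; 7 of 8 tested were called higher in cardiomyocytes and 7 lower in culture, and their part was not tested. Among the day 3 comparisons Mmp9 was called in shPtbp1 against MGT only (-0.69, -0.24 at a pseudocount of 2 and -2.20 with edgeR), and that call was lost without MGT replicate 1 (adjusted p = 0.0665).

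The membrane-type enzymes went separate ways. Mmp14, the main cell-surface collagenase and activator of the Mmp2 precursor, was 761 and 749 in fibroblasts, 415 and 395 in cardiomyocytes, 745 and 804 in control, 767 and 763 in MGT, 804 and 778 in shNT, and 789 and 790.3 in shPtbp1. It was lower in cardiomyocytes (-0.90 ± 0.041) and was called in no other comparison. Mmp15, a transmembrane relative on chromosome 8 (95352268 to 95375080), was 119 and 124 in fibroblasts, 129.5 and 128 in cardiomyocytes, 16.1 and 17.7 in control, 50.1 and 51.7 in MGT, 43.97 and 44.1 in shNT, and 58.2 and 62.7 in shPtbp1. Fresh cells of both kinds were highest and control lowest, with MGT, shNT and shPtbp1 in between. It fell in control against fresh fibroblasts (-2.82 ± 0.048), rose in MGT against control (1.57 ± 0.048, adjusted p = 3.41e-14), was lower in shNT than in MGT (-0.21 ± 0.048), and rose in shPtbp1 against both shNT (0.45 ± 0.048) and MGT (0.25 ± 0.048). The third transmembrane enzyme, Mmp16, was 55.1 and 52.4 in fibroblasts, 21.2 and 21.6 in cardiomyocytes, 51.6 and 55.5 in control, 41.4 and 43.03 in MGT, 47.5 and 48.4 in shNT, and 46.6 and 42.7 in shPtbp1. It differed by -1.31 ± 0.051 between the fresh cell types and -0.34 ± 0.051 in MGT against control. Mmp25, a lipid-anchored enzyme of leukocytes, was 1.51 and 1.75 in fibroblasts, 3.65 and 3.96 in cardiomyocytes, 0.0754 and 0.0565 in control, 0.106 and 0.0223 in MGT, 0.148 and 0.0344 in shNT, and 0.0254 and 0.0841 in shPtbp1. Reads were under 15 in every cultured library, so its culture value of -1.91 ran from -3.38 to -0.81 with the pseudocount and was -4.55 with edgeR. Mmp17, also lipid-anchored, was 5.92 and 6.17 in cardiomyocytes, 6.30 and 5.95 in shNT and 10.3 and 11.3 in fibroblasts, and rose in shPtbp1 against shNT (0.51 ± 0.083). Mmp24 stayed under the filter, with at most 14 reads in a library.

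Of the remaining enzymes, Mmp11 rose and Mmp28 fell in culture. Mmp28 passed the filter only through fresh libraries, which fixed its direction. Stromelysin 3, Mmp11, which is activated inside the cell by furin, was 28.8 and 27.9 in fibroblasts, 13.3 and 13.3 in cardiomyocytes, 39.9 and 38.1 in control, 37.1 and 34.97 in MGT, 35.8 and 35.2 in shNT, and 53.05 and 53.04 in shPtbp1. It was low in cardiomyocytes (-1.06 ± 0.048), higher in control than in fibroblasts (0.45 ± 0.048), and highest in both shPtbp1 libraries (0.57 ± 0.048 against shNT and 0.55 ± 0.048 against MGT). Epilysin, Mmp28, was 9.83 and 9.60 in fibroblasts, 10.97 and 11.5 in cardiomyocytes, 0.301 and 0.407 in control, 0.448 and 0.501 in MGT, 0.365 and 0.321 in shNT, and 0.585 and 0.434 in shPtbp1, so that fresh cells of both types stood above all cultures (-3.58 ± 0.12, and -2.31 at a pseudocount of 2); 12% of its exon bases are shared with an opposite-strand gene. Mmp23, an enzyme anchored by its N-terminal end, was 84.3 and 78.5 in fibroblasts, 39.00 and 37.1 in cardiomyocytes, 64.2 and 70.6 in control, 51.3 and 49.1 in MGT, 57.9 and 55.9 in shNT, and 45.6 and 47.2 in shPtbp1. It was lower in cardiomyocytes (-1.09 ± 0.050) and MGT (-0.42 ± 0.050), and shPtbp1 stood below shNT (-0.29 ± 0.050). Mmp19 ranged from 12.7 and 12.1 in cardiomyocytes to 32.2 and 28.9 in control (0.73 ± 0.062 against fibroblasts), with 28.3% of its exon bases shared with genes on the opposite strand. Mmp21 had at most 7 reads in a library.

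Of the 3 procollagen N-proteinases, Adamts2 was the most abundant per kb in fresh fibroblasts, at 41.5 scaled CPM per kb against 29.6 for Adamts14 and 0.712 for Adamts3. This enzyme, which removes the N-terminal propeptide of fibrillar collagens, was 393 and 383 in fibroblasts, 156 and 161 in cardiomyocytes, 315 and 315 in control, 253 and 259 in MGT, 290.1 and 277 in shNT, and 237 and 227 in shPtbp1. Fibroblasts were highest and cardiomyocytes lowest (-1.29 ± 0.036), while among cultures MGT was below control (-0.30 ± 0.036) and shPtbp1 below shNT (-0.29 ± 0.036). Adamts14 was 154 and 154 in fibroblasts, 72.3 and 70.8 in cardiomyocytes, 52.2 and 59.8 in control, 43.4 and 41.4 in MGT, 41.1 and 39.4 in shNT, and 40.4 and 39.4 in shPtbp1. It fell in culture (-1.45 ± 0.051) and in MGT against control (-0.39 ± 0.051), and was called in neither lentivirus comparison. Adamts3, which also trims a lymphatic growth factor, was 3.83 and 3.90 in fibroblasts, 5.79 and 6.96 in cardiomyocytes, 0.775 and 0.768 in control, 0.814 and 0.512 in MGT, 0.832 and 0.607 in shNT, and 1.39 and 1.40 in shPtbp1. Unlike the other pair it was higher in cardiomyocytes than in fibroblasts (0.65 ± 0.14), and it rose in shPtbp1 against shNT (0.64 ± 0.14) and MGT (0.72 ± 0.14) from levels under 1; these values became 0.32 and 0.35 at a pseudocount of 2.

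The proteoglycan-cutting members, which act on versican and aggrecan, were all called lower in control cultures than in fresh fibroblasts. So were 15 of all 17 tested Adamts genes, beside 43.4% of all genes. Adamts1 was 747 and 743 in fibroblasts, 656 and 663 in cardiomyocytes, 188 and 203 in control, 158 and 166 in MGT, 206 and 197 in shNT, and 207 and 197 in shPtbp1. Its fresh levels were close to each other (-0.18 ± 0.041, and -0.36 under quantile normalization) and several times those of every culture (-1.93 ± 0.041), and MGT was the lowest culture (-0.27 ± 0.041 against control). Adamts4, aggrecanase 1, was 111 and 111 in fibroblasts, 48.4 and 54.8 in cardiomyocytes, 7.14 and 8.45 in control, 10.02 and 9.83 in MGT, 7.04 and 6.75 in shNT, and 9.53 and 9.85 in shPtbp1, a change of -3.75 ± 0.075 in culture. Within the cultures it was higher in MGT than in control (0.34 ± 0.075, and 0.22 without control replicate 1), lower in shNT than in MGT (-0.50 ± 0.075), and higher in shPtbp1 than in shNT (0.46 ± 0.075). Adamts5, aggrecanase 2, was 229 and 226 in fibroblasts, 105 and 105 in cardiomyocytes, 196 and 209 in control, 181 and 190.0 in MGT, 237 and 229 in shNT, and 257 and 243 in shPtbp1. It fell little in culture (-0.17 ± 0.040, and -0.28 without scaling), was lower in cardiomyocytes (-1.11 ± 0.040), and was higher with either hairpin than in MGT alone (0.33 ± 0.040 and 0.43 ± 0.040).

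Adamts15 and Adamts9 shared a pattern among the day 3 groups, with the same directions as Adamts4 and Mmp15. Adamts15 was 45.1 and 43.8 in fibroblasts, 22.6 and 21.8 in cardiomyocytes, 16.02 and 14.9 in control, 23.3 and 21.4 in MGT, 14.4 and 12.1 in shNT, and 28.2 and 25.4 in shPtbp1. It rose in MGT (0.52 ± 0.076), fell in shNT (-0.74 ± 0.076) and rose in shPtbp1 against shNT (1.00 ± 0.076, adjusted p = 1.00e-08), where both shPtbp1 libraries lay above every other culture. Adamts9, a protease of the embryonic heart, was 118 and 123 in fibroblasts, 103 and 102 in cardiomyocytes, 54.7 and 60.6 in control, 63.1 and 71.9 in MGT, 50.7 and 47.01 in shNT, and 76.4 and 73.8 in shPtbp1. The same 3 steps gave 0.23 ± 0.057, -0.46 ± 0.057 and 0.62 ± 0.057, with shPtbp1 highest among cultures; 12% of its exon bases lie under genes on the opposite strand. In MGT against control the Adamts9 call was lost without control replicate 1 (adjusted p = 0.0669) or MGT replicate 2 (adjusted p = 0.129), and the value without the latter was 0.13. Adamts20, needed for the spread of pigment cells, was 12.4 and 12.4 in fibroblasts, 4.10 and 5.17 in cardiomyocytes, 6.86 and 8.88 in control, 10.9 and 11.2 in MGT, 12.03 and 11.4 in shNT, and 6.59 and 6.49 in shPtbp1. It rose in MGT (0.48 ± 0.11, and 0.30 without control replicate 1) and fell in shPtbp1 against both shNT (-0.79 ± 0.11) and MGT (-0.72 ± 0.11). Adamts8 ranged from 9.20 and 7.64 in shPtbp1 to 34.05 and 32.5 in fibroblasts and fell in shNT against MGT (-0.51 ± 0.078) and again in shPtbp1 against shNT (-0.42 ± 0.078); 10.6% of its exon bases are shared with an opposite-strand gene.

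The other ADAMTS enzymes included Adamts19, Adamts17 and Adamts16, which were far lower in every culture than in fresh cells. Each passed the filter only through fresh libraries, which fixed the direction of that difference. Adamts19, known for its part in heart valve formation, was 74.7 and 73.8 in fibroblasts, 41.7 and 42.3 in cardiomyocytes, 0.775 and 0.519 in control, 0.931 and 0.713 in MGT, 1.00 and 1.25 in shNT, and 0.737 and 0.799 in shPtbp1. The change in control against fibroblasts was -6.04 ± 0.12, and cardiomyocytes were below fibroblasts (-0.81 ± 0.12). Adamts17, linked to fibrillin microfibrils, was 33.8 and 34.2 in fibroblasts, 22.6 and 24.6 in cardiomyocytes, 0.452 and 0.486 in control, 0.507 and 0.401 in MGT, 0.296 and 0.344 in shNT, and 0.496 and 0.589 in shPtbp1, with -5.16 ± 0.11 in culture and -0.52 ± 0.11 between the fresh types. Adamts19 was called at 0.30 in shNT against MGT, and the call was lost with 1 library left out (adjusted p = 0.339 without MGT replicate 2 and 0.321 without shNT replicate 2). Its value of -0.36 in shPtbp1 against shNT was lost likewise (adjusted p = 0.215 without shNT replicate 2, 0.0984 without shPtbp1 replicate 1 and 0.0523 without shPtbp1 replicate 2), as was the 0.34 of Adamts17 (adjusted p = 0.115 without shNT replicate 1 and 0.132 without shPtbp1 replicate 2). All 3 calls rest on levels near 1 or below and were lost at a pseudocount of 2. Adamts16 was 2.67 and 2.22 in fibroblasts, 0.835 and 0.987 in cardiomyocytes, 0.0215 and 0.0113 in control, 0 and 0.0334 in MGT, 0.0342 and 0.0229 in shNT, and 0.0254 and 0 in shPtbp1. At most 3 reads were found in any culture, so its culture value (-2.51) ran from -4.45 to -1.14 with the pseudocount.

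Adamts10, which binds fibrillin, was 249 and 246 in fibroblasts, 142 and 142 in cardiomyocytes, 91.7 and 97.7 in control, 92.6 and 86.97 in MGT, 119 and 121 in shNT, and 128 and 123 in shPtbp1. Fibroblasts were highest and the plain cultures lowest (-1.38 ± 0.040 in control), and both lentivirus groups stood above MGT (0.42 ± 0.040 for shNT and 0.48 ± 0.040 for shPtbp1). Adamts12, which cuts cartilage oligomeric matrix protein, was 217 and 221 in fibroblasts, 105 and 100.1 in cardiomyocytes, 442 and 487 in control, 385 and 413 in MGT, 515 and 493 in shNT, and 362 and 316 in shPtbp1. It was the one ADAMTS enzyme whose cultured libraries all lay above the fresh ones (1.08 ± 0.055), and it rose in shNT against MGT (0.34 ± 0.055) and fell in shPtbp1 against shNT (-0.58 ± 0.055). Its near relative Adamts7 was lower in cultures than in fibroblasts (-0.83 ± 0.055), at 109 and 106 in fibroblasts and 56.1 and 64.4 in control. Adamts6 was one of 2 ADAMTS genes higher in cardiomyocytes (0.56 ± 0.086), beside Adamts3. It ranged from 7.20 and 6.75 in fibroblasts to 13.7 and 12.9 in MGT, and fell in shNT against MGT (-0.39 ± 0.086). Adamts13, which cuts von Willebrand factor in blood, and Adamts18 stayed under the filter. Adamts13 had 59 and 37 reads in fibroblasts and at most 9 elsewhere.

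Among the ADAMTS-like proteins a single gene dominated the cultures. Adamtsl2, which binds the latent TGF-beta binding protein and fibrillin, lies on chromosome 2 (27079379 to 27108981) and was 37.3 and 37.2 in fibroblasts, 16.1 and 15.5 in cardiomyocytes, 1025 and 1034 in control, 784 and 788 in MGT, 1021 and 1024 in shNT, and 842 and 780.1 in shPtbp1. The rise in control against fibroblasts was 4.77 ± 0.037 (adjusted p = 3.10e-25), and all 8 cultured libraries stood far above all 4 fresh ones. It was lower in MGT than in control (-0.39 ± 0.037), higher in shNT than in MGT (0.38 ± 0.037), and lower in shPtbp1 than in shNT (-0.33 ± 0.037). Adamtsl4, also a microfibril protein, was 44.9 and 45.6 in fibroblasts, 27.4 and 27.6 in cardiomyocytes, 9.89 and 10.8 in control, 13.4 and 12.9 in MGT, 17.2 and 18.2 in shNT, and 16.8 and 16.4 in shPtbp1; it fell in culture (-2.08 ± 0.060) and lay higher in MGT than in control (0.33 ± 0.060) and in shNT than in MGT (0.41 ± 0.060). Adamtsl1 was 12.3 and 12.8 in fibroblasts, 5.21 and 5.98 in cardiomyocytes, 10.9 and 11.9 in control, 19.9 and 21.8 in MGT, 16.2 and 15.6 in shNT, and 18.8 and 16.2 in shPtbp1. It rose in MGT (0.85 ± 0.084), with both MGT libraries above the fresh fibroblasts, and fell in shNT against MGT (-0.38 ± 0.084). Adamtsl3 was 99.02 and 103 in fibroblasts, 45.9 and 48.7 in cardiomyocytes, 57.7 and 58.3 in control, 44.7 and 48.2 in MGT, 40.2 and 40.2 in shNT, and 50.2 and 48.6 in shPtbp1, lower in cardiomyocytes (-1.08 ± 0.045), control (-0.79 ± 0.045) and MGT (-0.32 ± 0.045). Adamtsl5 ran from 27.00 and 28.7 in cardiomyocytes to 78.3 and 85.03 in shPtbp1, and differed by 0.25 ± 0.054 in culture, or 0.16 without control replicate 2 and 0.14 without scaling. The related genes Papln and Thsd4, which the name rule leaves out, both fell in culture, Papln from 66.2 to 0.145 and Thsd4 from 232 to 28.1.

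The 4 inhibitors did not move together. Timp1, an inducible inhibitor with weak action on several membrane-type enzymes, lies on the X chromosome and was 16.9 and 16.2 in fibroblasts, 12.8 and 11.8 in cardiomyocytes, 109 and 105 in control, 103 and 109.9 in MGT, 108 and 113 in shNT, and 97.9 and 106 in shPtbp1. All cultures lay above all fresh libraries (2.65 ± 0.051), cardiomyocytes were below fibroblasts (-0.41 ± 0.051), and no day 3 comparison was called. Timp2, which inhibits these enzymes and also helps Mmp14 to activate the Mmp2 precursor, was 614 and 613 in fibroblasts, 385 and 393 in cardiomyocytes, 1200.1 and 1262 in control, 1127 and 1150.3 in MGT, 1499.7 and 1485 in shNT, and 1517 and 1580.0 in shPtbp1. It rose in culture (1.00 ± 0.039) and again with the lentiviruses (0.39 ± 0.039 in shNT against MGT, 0.44 ± 0.039 in shPtbp1 against MGT). Timp3, the matrix-bound inhibitor that also blocks ADAMTS and ADAM enzymes, was 561 and 570.2 in fibroblasts, 444 and 445 in cardiomyocytes, 579.6 and 577 in control, 451 and 479.5 in MGT, 325 and 319.9 in shNT, and 416 and 385 in shPtbp1. It was lower in cardiomyocytes (-0.35 ± 0.040), in MGT against control (-0.31 ± 0.040) and in shNT against MGT (-0.53 ± 0.040), and higher in shPtbp1 than in shNT (0.31 ± 0.040); its exons share 21.3% of their bases with Syn3 on the opposite strand, and the strand setting of the counting is not given. Timp4, an inhibitor typical of heart, was 12.9 and 11.9 in fibroblasts, 18.3 and 17.2 in cardiomyocytes, 0.0108 and 0 in control, 0 and 0 in MGT, 0.0228 and 0 in shNT, and 0.0254 and 0.0280 in shPtbp1. Fresh libraries held 915 to 1310 reads and cultured libraries 0 to 2, which makes the fitted change of -4.68 in control against fibroblasts dependent on the pseudocount (-2.85 at 2, and -10.8 with edgeR). It was higher in cardiomyocytes than in fibroblasts (0.50 ± 0.11). Thus Timp1 and Timp2 stood above fresh levels in every culture, Timp4 stood below and Timp3 overlapped. Timp4 passed the filter only through fresh libraries, which fixed the direction of its difference.

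**Figure D3:**
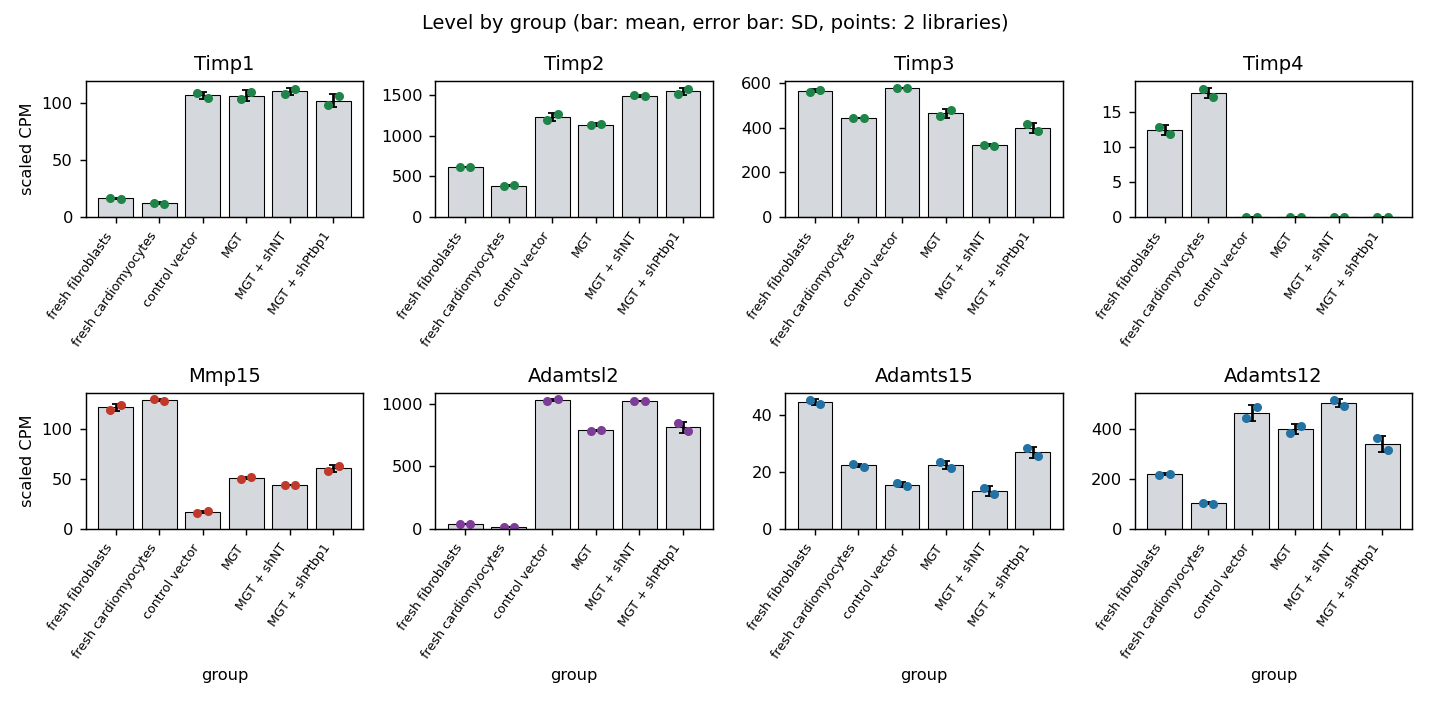
Scaled CPM of the 4 TIMP genes and of Mmp15, Adamtsl2, Adamts15 and Adamts12 in the 6 groups (bars: mean; error bars: SD; points: 2 libraries; axes start at 0). Timp1, Timp2, Adamtsl2 and Adamts12 are higher in every culture than in fresh cells, Timp4 is near 0 in culture, and Mmp15 and Adamts15 are both higher in MGT than in control and in shPtbp1 than in shNT.

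Levels of different genes were set side by side per kilobase of exon. In fresh fibroblasts Mmp2 led with 316 scaled CPM per kb, followed by Timp2 (157), Adamts1 (140.5), Mmp14 (127) and Timp3 (69.5). The same 5 genes led in cardiomyocytes, with Mmp2 at 195 and Adamts1 at 124. In control cultures the order was Timp2 (316), Mmp2 (148), Mmp14 (129.9), Adamtsl2 (129) and Timp1 (120.2), and Adamts1 stood at 36.8. Summed scaled CPM of the 23 Mmp genes were 2184 and 2156 in fibroblasts, 1371 and 1335 in cardiomyocytes and 1851 and 1900.4 in control. Over the 19 Adamts genes the sums were 2542 and 2522, 1594 and 1604 and 1455 and 1560.4, and over the 4 Timp genes 1205 and 1212, 860.3 and 867 and 1889 and 1944. The protease sums were thus highest in fresh fibroblasts, while the TIMP sum was higher in control cultures than in either fresh type.

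Fresh cardiomyocytes against fresh fibroblasts asked which members mark either preparation. Of the 42 tested, 30 were lower in cardiomyocytes, where 41.7% of all genes were called lower, and 8 were higher, against 35.2% of all genes. By family, 15 of 17 Adamts genes, 5 of 5 Adamtsl genes, 7 of 16 Mmp genes and 3 of 4 Timp genes were lower. The 8 higher were Mmp8, Mmp9, Mmp12, Mmp13, Mmp25, Adamts3, Adamts6 and Timp4. At least 2-fold, 13 were lower, led by Adamts20 (-1.34 ± 0.11), Mmp16 and Adamts2, beside 4% of all genes, and 4 were higher, all of them Mmp genes (Mmp8, Mmp9, Mmp13 and Mmp25), beside 8.26%. The median over members was -0.68, and over all genes -0.046. Substrates of these enzymes were lower in 14 of 18 and higher in 3, with aggrecan Acan at 2.79 against 26.96. Fibroblast markers (11 of 12 lower, sums 45018 in fibroblasts and 25817 in cardiomyocytes) and the neutrophil markers above moved in the same comparison. The other marker lists moved too. In the macrophage list 9 of 13 genes fell and 2 rose, while Mmp12 was called higher. All 12 genes of the cardiomyocyte list rose. The endothelial list gave 8 rises and 1 fall among 12 genes, and the epicardial list 5 rises and 3 falls among 9. The part of all these cells was not tested.

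Control cultures against fresh fibroblasts compared freshly isolated cells with plated cells 3 days after virus was added, so time, medium and virus cannot be told apart. Of the 42 genes, 25 fell, against 43.4% of all genes, and 13 rose, against 43.5%. By at least 2-fold, 17 fell (all genes 17.8%) and 8 rose (all genes 12%). The 8 were Mmp3, Mmp12, Adamtsl2, Mmp27, Mmp8, Timp1, Adamts12 and Timp2, and among the 17 were 10 of 17 Adamts genes. Of those that fell, Timp4, Mmp9, Mmp25, Mmp28, Adamts16, Adamts17 and Adamts19 passed the filter only through fresh libraries, which fixed their direction. Likewise, Mmp3 and Mmp27 passed only through the cultures. The members' median was -0.47, beside 0.0038 for all genes. That median of all genes was -0.10 without scaling and 0.11 under quantile normalization, so that values near 0 depend on the scaling. The call of Mmp17 (-0.20) was lost under quantile normalization (-0.0585), upper-quartile scaling (-0.161) and with edgeR on reads (-0.166). It was also lost with 1 library left out. The change was then -0.132 without fibroblast replicate 2, -0.17 without control replicate 1 and -0.221 without control replicate 2. Of the 11 tested genes of the plasminogen system and activating convertases, 4 rose and 6 fell. The urokinase gene Plau went from 41.4 to 213, while the convertase Pcsk6 went from 439 to 35.8. Inducers and signal mediators fell in 18 of 24 and rose in 5. The AP-1 genes Fos and Fosb, members of the family named above for the TGANTCA core, were 2446 and 971 in fibroblasts and 10.1 and 1.65 in control. Jun, Junb, Jund and Fosl2 of that family fell too, and Fosl1 rose from 1.25 to 4.46. Among other metzincins Adam8 rose (13.9 to 274) and Tll2 fell, with 5 higher and 9 lower of 14. Endothelial markers fell in 12 of 12, their sum going from 3754 to 211. Of 12 cardiomyocyte markers 10 fell and 2 rose (sums 1909 in fibroblasts and 2607 in control). Of 12 fibroblast markers 5 fell and 3 rose (sums 45018 and 25601). The epicardial list gave 4 rises and 4 falls among 9 genes. Macrophage markers rose in 9 of 13 and fell in 3, and neutrophil markers fell in 7 of 8. The part of all these cells was not tested.

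**Figure D4:**
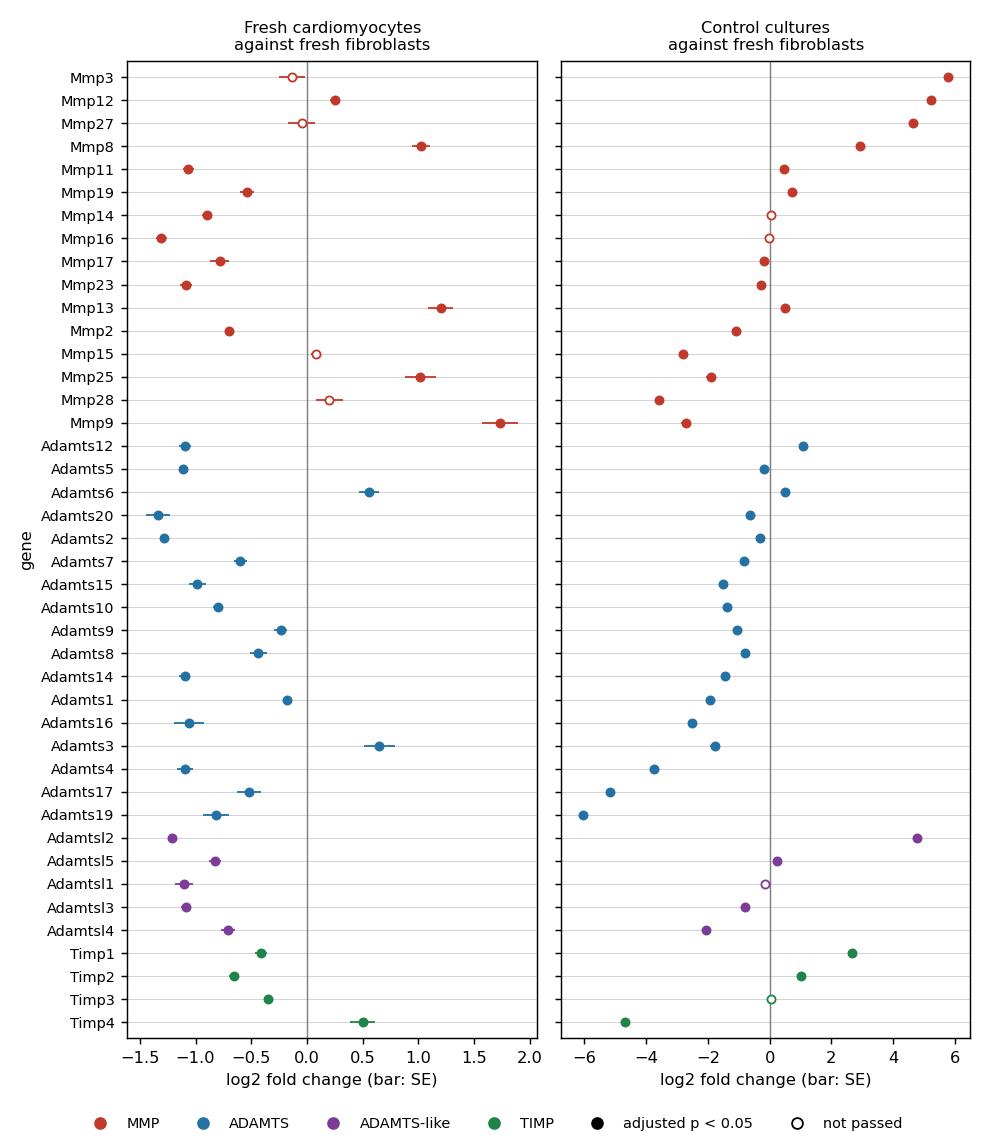
Log2 fold change (horizontal axis, bar: SE) of the 42 tested genes in cardiomyocytes against fibroblasts (left) and control cultures against fresh fibroblasts (right); filled points passed an adjusted p of 0.05, colours mark families. Adamts and Adamtsl genes lie mostly left of 0 in the left panel, and in the right panel values run from -6.04 for Adamts19 to 5.78 for Mmp3.

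MGT against control asked how the cardiac factors changed these genes by day 3. Of the 42, 12 rose, against 17.9% of all genes, and 15 fell, against 17.7%. Mmp15 was the 1 gene called higher by at least 2-fold (all genes 0.773%), followed by Mmp12, Adamtsl1, Mmp13 and Adamts15. The falls were small, led by Mmp23 (-0.42 ± 0.050), Adamts14 and Adamtsl2 (-0.39 ± 0.037), and the members' median was -0.050. In the same comparison 9 of 12 fibroblast markers fell and 2 rose (sums 25601 in control and 21652 in MGT), 7 of 12 endothelial markers fell and 1 rose, 5 of 9 epicardial markers fell and 2 rose, and 9 of 12 cardiomyocyte markers rose and 1 fell; their part was not tested. Substrates fell in 8 of 18 and rose in 0 (limma; 0 at an unadjusted p under 0.05 and 0 with edgeR). Elastin Eln fell most, from 1910.4 to 1158. Among other metzincins the tolloid gene Tll2 rose from 0.573 to 2.20 and Adam12 fell from 69.4 to 47.1. The membrane-anchored MMP inhibitor Reck rose from 62.5 to 78.7. Small calls were often lost with 1 library left out, with these adjusted p-values. For Adamts5 it was 0.192 without control replicate 2 and 0.18 without MGT replicate 1. For Adamts7 it was 0.224 without control replicate 2 and 0.0983 without MGT replicate 2. For Adamts12 it was 0.0699 without control replicate 2 and 0.0725 without MGT replicate 1. For Adamtsl5 it was 0.184 without control replicate 1 and 0.0758 without MGT replicate 1. For Timp2 it was 0.182 without control replicate 2, 0.15 without MGT replicate 1 and 0.0725 without MGT replicate 2. Of these genes Adamts12 had the largest change (-0.22). The p of Mmp3 became 0.08 without control replicate 1, 0.0932 without control replicate 2 and 0.223 without MGT replicate 2. The p of Mmp8 became 0.0665 without MGT replicate 1. The p of Mmp17 became 0.0711 without control replicate 1, 0.159 without control replicate 2, 0.108 without MGT replicate 1 and 0.132 without MGT replicate 2.

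Adding the shNT lentivirus to MGT was compared with MGT alone. Called were 14 higher (all genes 24.6%) and 16 lower (all genes 20.1%), with 5 of the falls and none of the rises at least 2-fold (all genes 3.24% and 0.272%). These 5 were the 5 tested genes of the chromosome 9 run: Mmp8, Mmp27, Mmp12, Mmp13 and Mmp3. Rises were led by Adamts7 (0.43 ± 0.055), Adamts10, Adamtsl4 (0.41 ± 0.060) and Timp2, and the member median was 0.0059. Beside them fell 13 of 13 macrophage and 6 of 8 neutrophil markers, with the sums given above, and 7 of 12 endothelial markers rose and 1 fell (sums 187 in MGT and 202 in shNT); their part was not tested. The urokinase gene Plau fell from 206 to 62.1, its receptor Plaur from 36.9 to 21.9, and Adam8 from 257 to 90.9. With 1 library left out, the small rise of Mmp16 lost its call (adjusted p = 0.0752 without MGT replicate 1 and 0.053 without shNT replicate 2). The same held for Mmp23 (0.0798 without MGT replicate 2 and 0.0691 without shNT replicate 1) and Adamts2 (0.0596 without shNT replicate 1).

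Silencing Ptbp1 was compared with shNT, both with MGT and a lentivirus. Of the 42, 12 were higher in shPtbp1 (all genes 16.7%) and 9 lower (all genes 18.1%). Adamts15, Mmp3, Adamts3, Adamts9, Mmp11, Mmp17, Adamts4, Mmp15, Adamtsl3 and Timp3 rose by 0.29 to 1.00, beside Adamts17 and Mmp2. Mmp12 fell by over 2-fold (all genes 0.229%), and Adamts20, Mmp13, Adamts12, Adamts8, Adamts19, Adamtsl2, Mmp23 and Adamts2 fell by less. In the same comparison 7 of 12 fibroblast markers rose and 1 fell, and 8 of 12 cardiomyocyte markers rose and 4 were not called. Epicardial markers fell in 5 of 9 and rose in 2, and endothelial markers rose in 3 of 12 and fell in 1. The part of these cells was not tested. The call of Mmp2 (0.13) was lost without shNT replicate 2 (adjusted p = 0.103). The MMP inhibitor Reck fell from 64.6 and 64.5 to 31.02 and 27.8 (-1.12 ± 0.051, adjusted p = 1.14e-11), and was 75.7 and 81.8 in MGT. Of the 9 tested genes of the list of other inhibitors and uptake receptors, Reck included, 4 fell and 0 rose (limma; 0 at an unadjusted p under 0.05 and 0 with edgeR), Tfpi2 and the thrombospondin gene Thbs1 (4324 to 2943) among them. Inducers and signal mediators fell in 6 of 24 and rose in 0 (limma; 2 at an unadjusted p under 0.05 and 0 with edgeR), Jun falling most (59.2 to 40.3).

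The comparisons share libraries, so that a low shNT value enters shNT against MGT and shPtbp1 against shNT with opposite signs. Set against MGT, the shPtbp1 libraries gave 13 higher (all genes 24.3%) and 13 lower (all genes 20%), with 4 falls of at least 2-fold (all genes 3.31%), Mmp12 (-2.70 ± 0.042), Mmp8 (-2.46 ± 0.085), Mmp13 (-2.04 ± 0.11) and Mmp27 (-1.49 ± 0.12). Mmp2, Mmp11, Mmp15, Adamts3, Adamts9 and Adamts15 were called higher, and Mmp12, Mmp13, Adamts2, Adamts8, Adamts12 and Adamts20 lower, in shPtbp1 against shNT and against MGT; both comparisons use the same shPtbp1 libraries. Timp3 was higher than in shNT but lower than in MGT (-0.22 ± 0.040), and Mmp3 differed from shNT and was not called against MGT. With 1 library left out, the call of Adamts15 against MGT was lost (adjusted p = 0.111 without MGT replicate 2 and 0.108 without shPtbp1 replicate 1). The same held for Adamts9 (0.479 without MGT replicate 1 and 0.144 without shPtbp1 replicate 1), Adamts12 (0.0536 without shPtbp1 replicate 2), Adamtsl1 (0.178 without MGT replicate 2 and 0.26 without shPtbp1 replicate 2) and Mmp19 (0.0505 without MGT replicate 1).

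**Figure D5:**
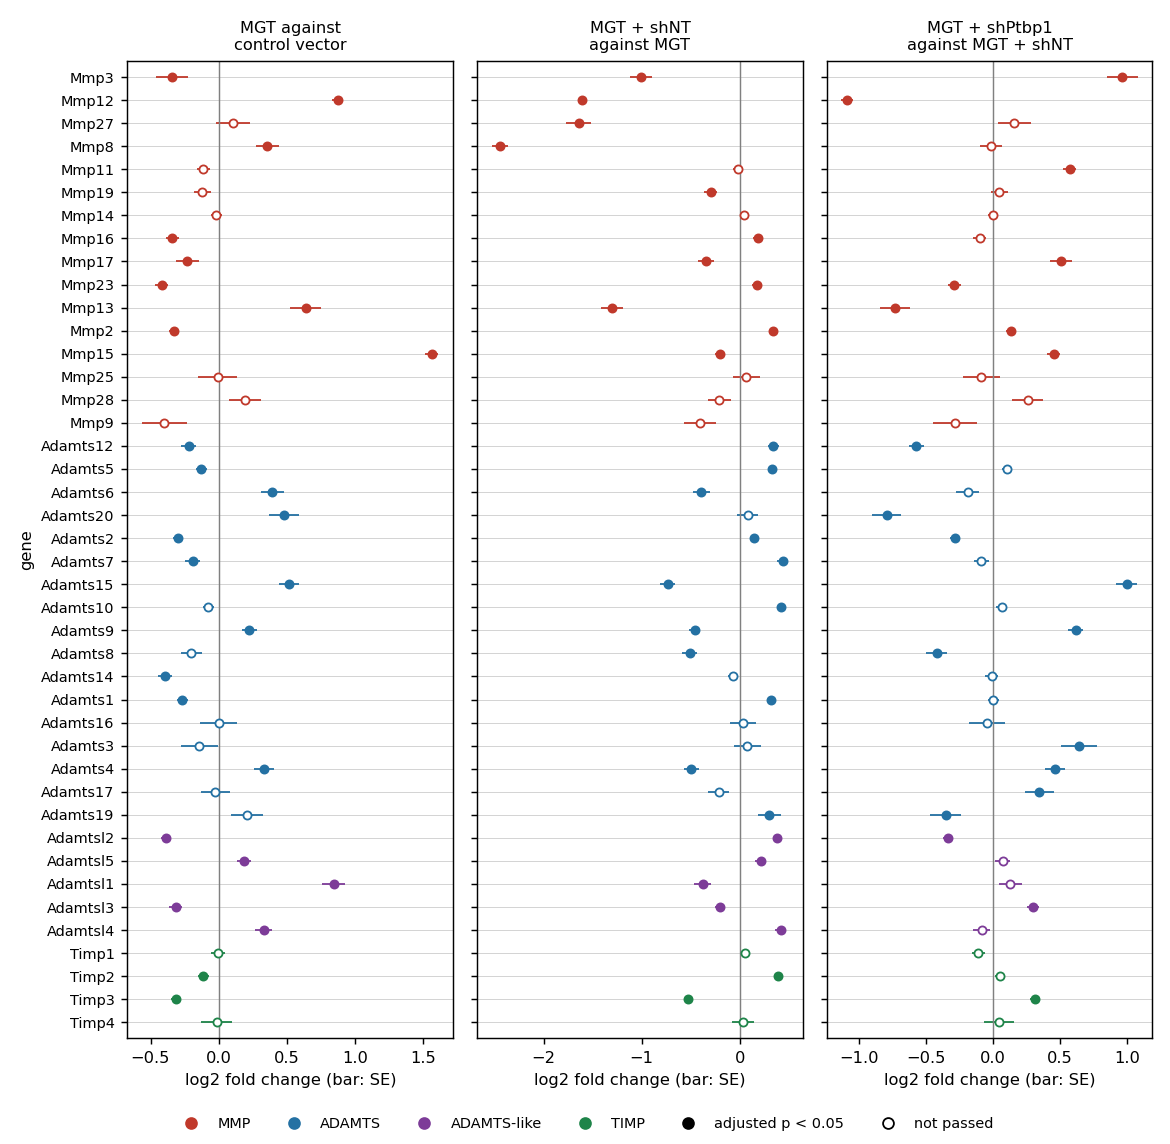
Log2 fold change (horizontal axis, bar: SE, scales differ between panels) of the 42 tested genes in MGT against control, shNT against MGT and shPtbp1 against shNT; filled points passed an adjusted p of 0.05. Mmp15 stands out at 1.57 in the left panel, the chromosome 9 genes at -2.44 to -1.01 in the middle, and Adamts15 (1.00) and Mmp12 (-1.09) mark the ends on the right.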

How the data were processed

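The deposited table gives CPM (counts scaled to an equal total in each library) for 12 libraries. Per the submitters' processing notes, the tools named are FastQC, TopHat2 2.1.0 and HTSeq 0.6.1p1, with genome build mm10; the gene annotation and strand setting were not given in the sources used. Per the labels, libraries came from polyadenylated RNA with a stranded kit. Low values were whole multiples of 1 read, and 100% of values came out whole within 0.1, so reads were recovered for an added count test. Date-like names from a spreadsheet stand in 27 rows; none is a gene described here.

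From the deposited CPM, libraries were scaled by the median of ratios, genes under 1 CPM in more than 10 libraries were dropped, and log2(scaled CPM + 0.5) was tested with limma 3.58.1 (R 4.3.3; trend, 1 mean per group over all 12 libraries, Benjamini-Hochberg over 13977 genes, threshold 0.05). With 2 libraries a group and no record of separate animals or cultures, the p-values rest on how far these samples differ within groups, a spread that may be technical. Replicates differed by an SD of 0.0796 to 0.102 on the log2 scale. The depth makes 3 reads worth 0.0313 to 0.0583 scaled CPM; intervals of this kind cover counting error only. Groups came from titles and transduction labels. Alternatives were 3 other scalings, pseudocounts of 0.1 and 2, no filter and a 5 CPM filter, fewer libraries, a robust prior, a replicate block, each library left out (the lone library of a group then being assumed to vary like the others), and edgeR 4.0.16 on recovered reads. The fits were tested on simulated data. Membership follows gene symbols, but these families and the gene lists were chosen with earlier results of these data known. Values in every library are given for the 4 Timp genes and for each gene called with at least a 2-fold change in any comparison (34 genes); other genes are given by range. Figures were drawn with matplotlib 3.10.9.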

Additional observations from a re-analysis of the deposited data

How the results depend on the processing

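The 12 counts of genes called higher or lower stayed within 1.5 times their value under every alternative run, with some at that limit. Under alternatives other than leaving 1 library out, genes higher in cardiomyocytes ran from 7 to 12, beside 8. Genes lower in MGT against control ran from 10 to 17, beside 15. Of 3936 values of single genes under alternatives, 84 lost their call and 42 gained one. No called value changed sign. Of 57 sign changes of values not called, 55 were not called under the alternative either. The other 2 came under quantile normalization in control cultures against fresh fibroblasts, where the median of all genes moved to 0.11: Mmp14 went from 0.035 to -0.29 and Timp3 from 0.032 to -0.24. Both were also below 0 without scaling. With a replicate block, 13 genes in place of 14 were called higher in shNT against MGT, since Adamts19 lost its call (adjusted p = 0.0536); the other counts of genes called were equal. Same-numbered libraries showed little shared deviation: over 15 pairs of groups the correlation of their deviations ran from -0.136 to 0.162. The 1 pair above 0.1 was shNT with shPtbp1. Since the spread between replicates may be technical, this check cannot exclude that libraries of equal number share animals or cultures. Depth limits genes under about 1 scaled CPM, whose fold changes follow the pseudocount, and 2 libraries a group leave small changes dependent on single libraries, most of all in MGT against control. There the number of genes called lower ran from 10 to 16 with 1 library left out, beside 15.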
